A study of Homo sapiens with 3 samples.

Results

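The genes described here encode core splicing factors and heterogeneous nuclear ribonucleoproteins (hnRNPs): the protein-coding genes whose symbols start with SRSF and a number, HNRNP, SF3A, SF3B or SNRP. The rule took 60 of the 58735 genes in the deposited expression table, by symbol and biotype alone. It took 12 SNRP genes, 9 SF3A and SF3B genes, 12 SRSF genes and 27 HNRNP genes. It leaves out splicing genes with other symbols, which are given at the end from 6 further lists. RNA sequencing was done on 3 libraries, all labelled HCT116, a line of human colorectal cancer cells, and all with control as the labelled treatment. The empty vector library came from control cells. The wild-type ZEB1 library came from cells that overexpressed the unaltered transcription factor, and the ZEB1 K80R library from cells that overexpressed a mutant form with arginine in place of a lysine. ZEB1 is a zinc-finger protein that binds E-box DNA motifs, represses epithelial genes and takes part in epithelial-mesenchymal transition. The series title names NF-κB, that transition and inflammatory genes as the subject of the K80R form. The labels do not say whether the cultures were clones or pools, or which promoter drove the transgene.

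Introns are removed from pre-mRNA by the spliceosome, which is built from small nuclear ribonucleoproteins (snRNPs). U1 snRNP recognises the start of the intron, and U2 snRNP, with its SF3A and SF3B subcomplexes, recognises the branch site near the end of it. A ring of Sm proteins forms the common core of the snRNPs. SR proteins bind exons and mostly promote their inclusion, while hnRNP proteins coat pre-mRNA and often act against inclusion, so the balance between them shapes which exons are kept. Changes of splicing accompany epithelial-mesenchymal transition in carcinoma cells, where the ESRP proteins maintain epithelial isoforms and hnRNP M, RBFOX2 and QKI have been tied to mesenchymal ones.

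Each group had 1 library. The spread between cultures is unknown, no test of the conditions was possible, and each difference is between 1 library and another. Levels are in FPKM, which scales fragments by a size set for the library and by the length of the gene. Intervals in brackets are exact 95% counting intervals, which cover counting error only. A gene counts as measured where its mean FPKM over the 3 libraries was at least 1, which held for 54 of the 60 genes and for 12605 genes in all. A gene counts as higher or lower where the ratio of FPKM + 1 reached 1.5. The reads recovered from the FPKM summed to 14764535 with empty vector, 14322537 with wild-type ZEB1 and 13479517 with K80R. The library sizes behind the deposited FPKM were 15886593, 13795840 and 13321338 in that order, so the deposited scale was not set by these sums. A scale set by the sums of reads was not tested. The empty vector library stood apart from the others, with 18928 genes above 0 against 23457 and 24325, 350 genes at a single read against 2705 and 2902, and 1.29% of reads on mitochondrial genes against 7.77% and 9.75%. How far this difference between libraries bears on the comparisons with empty vector was not tested. ZEB1 itself stood at 5.66, 9.83 and 10.3 FPKM in the empty vector, wild-type and K80R libraries. Of 10 markers of colon epithelium, 8 had no read in any library, EPCAM, CDH1, CDX2 and VIL1 among them, and only KRT8 and KRT18 were detected. The summed FPKM of the 10 markers was 92.7, 101 and 89.5. Of 18 markers of other cell types, PTPRC and CD3E had no read, NEFL, PDGFRB, TUBB3 and COL1A1 had a mean of at least 1 FPKM, and the summed FPKM was 76.6, 50.8 and 54.7. The labelled colon epithelial identity is therefore not borne out by its markers, and the part that this has in the results was not tested.

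The splicing genes were abundant in all 3 libraries. The 54 measured genes ranged from 1.20 to 287 FPKM with a median of 38.0 in the empty vector library. They ran from 1.70 to 211 with a median of 34.8 in the wild-type library, and from 1.47 to 203 with a median of 35.0 in the K80R library. They took 1.55%, 1.12% and 1.18% of all reads in that order. HNRNPA1 was the highest of them in every library and SNRPN the lowest in every library, but none was near the counting floor, since the fewest reads of any measured gene in any library was 53. The 6 genes below the filter were HNRNPCL1, HNRNPCL2, HNRNPCL3 and HNRNPCL4, which are copies of HNRNPC, the readthrough gene HNRNPUL2-BSCL2, and SRSF12. The first 5 had 0 reads in every library, which allows up to 3 reads each by counting error. SRSF12 had 0 reads with empty vector, 5 with wild-type ZEB1 and 2 with K80R.

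Against empty vector, more of the splicing genes were lower than higher in both ZEB1 libraries, and none differed by 1.5-fold between the 2 ZEB1 libraries. In the wild-type library 6 of 54 were higher and 11 lower than in the empty vector library, while 14.2% of all measured genes were higher and 11.1% lower. Lower genes thus made up 20.4% of the splicing genes, and higher genes 11.1%. In the K80R library 4 were higher and 13 lower than in the empty vector library, or 7.41% and 24.1% of the 54, beside 12.6% and 13.0% of all measured genes. These genes are abundant, so the protein-coding genes with a mean of at least 10 FPKM give a background nearer to their level. Of those, 15.1% were higher and 8.80% lower in the wild-type library, and 10.7% were higher and 14.3% lower in the K80R library. Of the 49 splicing genes at that level, 6 were higher and 9 lower in the wild-type library, and 4 higher and 11 lower in the K80R library. The median difference of log2(FPKM + 1) from empty vector was −0.21 in the wild-type library and −0.22 in the K80R library, beside 0.01 and 0.00 for all genes. Both comparisons share the empty vector library, so a departure of that library appears in both. In cultures sequenced whole, fewer cells that express a gene and less RNA of it per cell cannot be told apart. The empty vector library held the highest of the 3 values for 33 of the 54 genes and the lowest for 14. This was not counted over all measured genes, so it cannot be read as particular to the splicing genes. Between K80R and wild type none of the 54 genes was past 1.5-fold in either direction, while 4.42% of all measured genes were higher and 5.18% lower in the K80R library. Among protein-coding genes of at least 10 FPKM these shares were 0.705% and 4.94%. The differences of log2(FPKM + 1) between K80R and wild type ran from −0.46 to 0.54 with a median of −0.01.

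**Figure D1:**
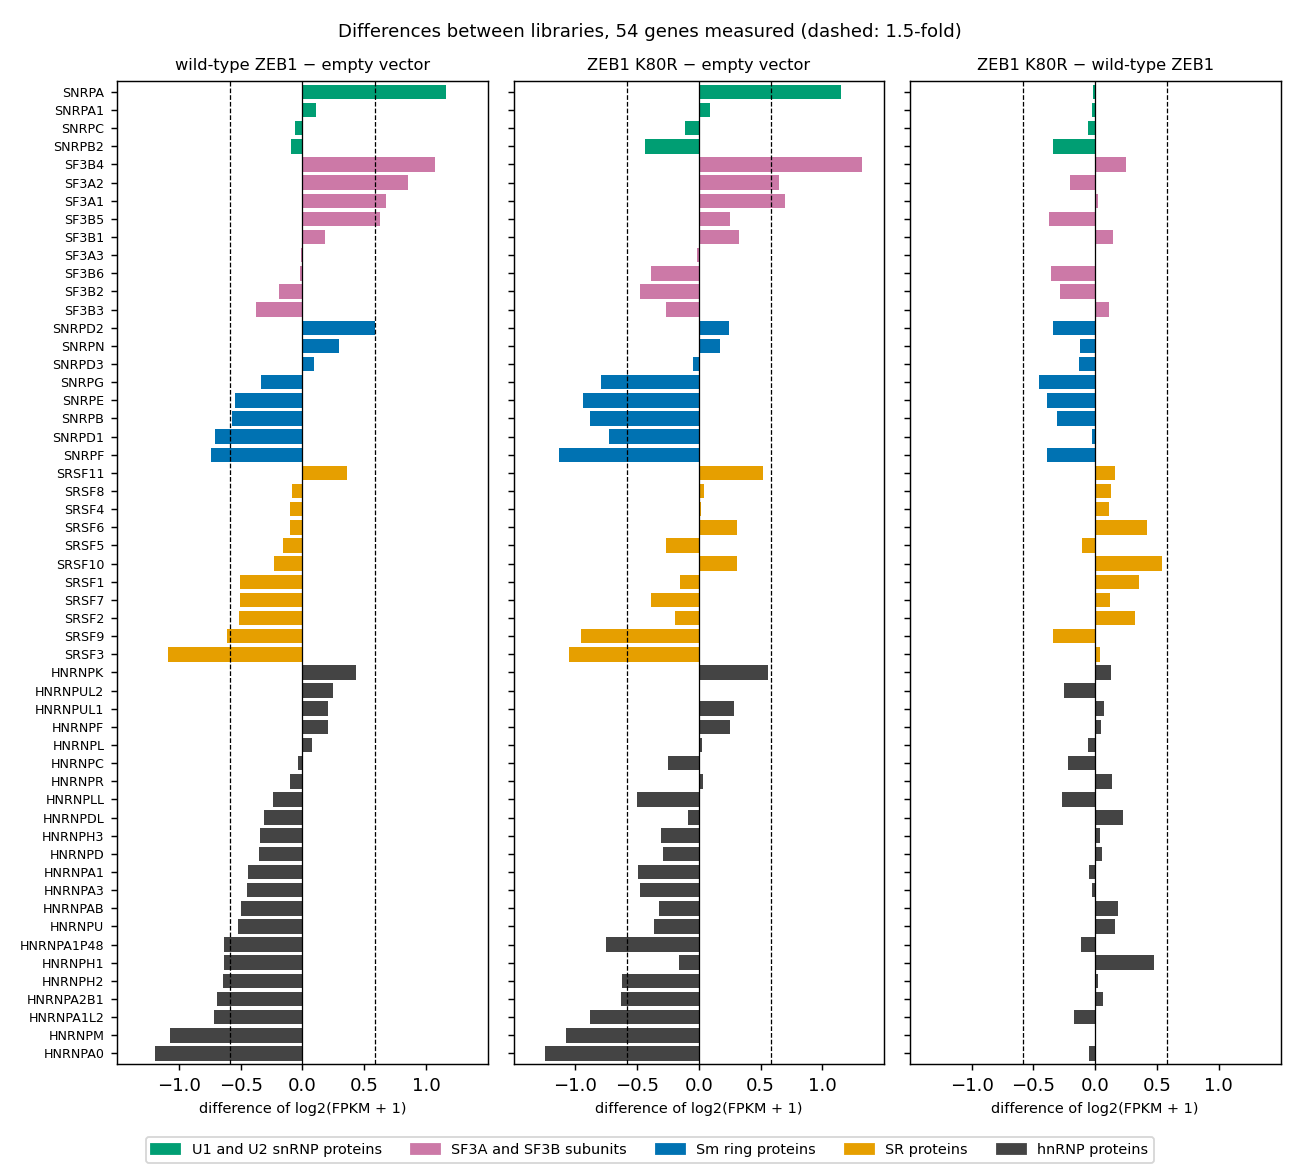
Difference of log2(FPKM + 1) for each of the 54 measured splicing genes (bars, coloured by role) in wild-type ZEB1 against empty vector, K80R against empty vector and K80R against wild type; dashed lines mark 1.5-fold. Bars reach past the dashed lines for 17 genes in each of the first 2 panels and for none in the third.

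**Figure D2:**
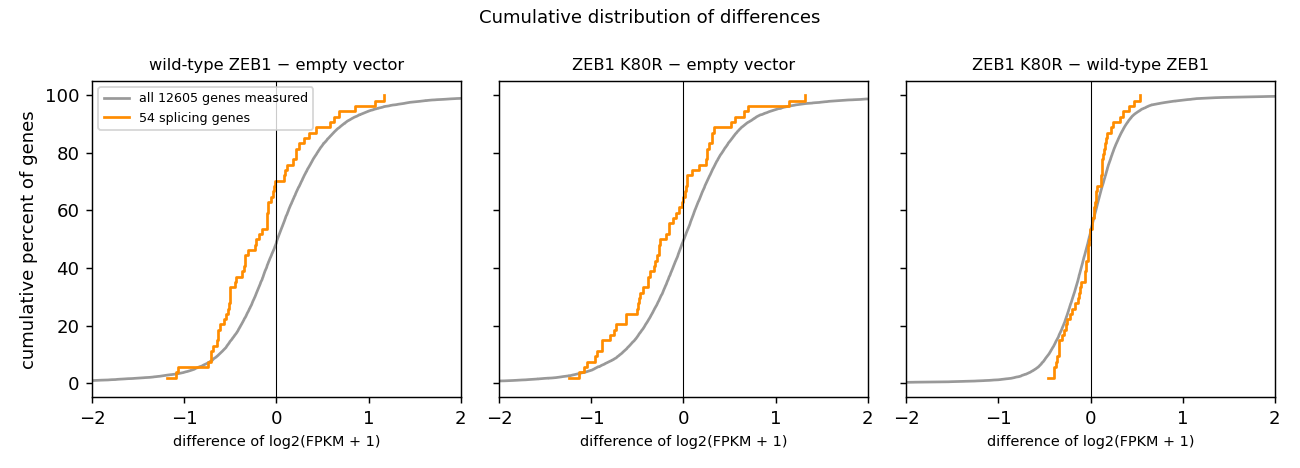
Cumulative percent of genes (vertical axis) by difference of log2(FPKM + 1) (horizontal axis) for the 54 splicing genes (orange steps) and all 12605 measured genes (grey), in the 3 comparisons. The orange curve lies to the left of the grey one over most of its range against empty vector, with medians of −0.21 and −0.22, and is steeper than it between the 2 ZEB1 libraries.

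The scale of the libraries bears on these counts. When all libraries were set to a common sum of FPKM per gene, the median of all genes moved to −0.37 (wild-type library) and −0.36 (K80R library) against empty vector. In each comparison 2 splicing genes were then higher and 29 lower. On that scale 5.92% of all genes were higher and 33.2% lower in the wild-type library, and 5.49% and 32.9% in the K80R library. Relative to the shifted median of all genes, 4 splicing genes were higher and 16 lower in the wild-type library, beside 13.9% and 12.2% of all genes. In the K80R library 4 were higher and 13 lower, beside 13.0% and 13.8%. The values below keep the deposited scale. A gene described as higher against empty vector is therefore higher relative to the median gene, and a value near 1 is a value near the median gene.

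Exactly 5 genes were past 2-fold in the same direction in both ZEB1 libraries. HNRNPA0, HNRNPM and SRSF3 were lower, and SF3B4 and SNRPA were higher. The 250 bases before the RefSeq start of each gene (GRCh38.p14, written 5′ to 3′ on the gene's strand) are shown because ZEB1 acts at promoters. Capitals mark the ZEB1 E-box CAGGTG, found once among them, beginning 66 bases before the RefSeq start of HNRNPM.
HNRNPA0: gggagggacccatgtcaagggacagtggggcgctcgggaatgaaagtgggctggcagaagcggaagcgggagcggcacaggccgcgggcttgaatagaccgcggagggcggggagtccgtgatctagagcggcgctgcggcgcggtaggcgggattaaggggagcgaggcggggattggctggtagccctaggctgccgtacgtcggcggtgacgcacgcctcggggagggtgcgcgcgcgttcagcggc
SRSF3: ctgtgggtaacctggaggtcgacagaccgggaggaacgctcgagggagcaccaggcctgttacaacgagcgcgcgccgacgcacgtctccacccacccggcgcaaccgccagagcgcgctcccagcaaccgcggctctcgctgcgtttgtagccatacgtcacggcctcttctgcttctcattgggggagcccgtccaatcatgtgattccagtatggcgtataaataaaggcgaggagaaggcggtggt
HNRNPM: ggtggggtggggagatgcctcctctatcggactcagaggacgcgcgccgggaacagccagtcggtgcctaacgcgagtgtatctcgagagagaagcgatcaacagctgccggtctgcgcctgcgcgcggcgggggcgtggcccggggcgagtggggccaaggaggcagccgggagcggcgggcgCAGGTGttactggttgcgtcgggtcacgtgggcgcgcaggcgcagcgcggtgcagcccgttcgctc
SF3B4: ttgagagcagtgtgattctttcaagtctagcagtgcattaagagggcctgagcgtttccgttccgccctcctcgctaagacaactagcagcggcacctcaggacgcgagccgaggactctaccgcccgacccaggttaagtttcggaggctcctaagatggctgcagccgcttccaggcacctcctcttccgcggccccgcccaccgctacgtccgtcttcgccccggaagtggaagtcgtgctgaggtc
SNRPA: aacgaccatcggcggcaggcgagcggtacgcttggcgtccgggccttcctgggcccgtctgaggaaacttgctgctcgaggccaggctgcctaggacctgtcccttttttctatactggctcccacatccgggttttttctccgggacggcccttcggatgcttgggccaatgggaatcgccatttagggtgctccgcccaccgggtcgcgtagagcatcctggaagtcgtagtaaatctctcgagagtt
The windows lie on chr5:137754364-137754613 (minus strand), chr6:36594112-36594361, chr19:8444725-8444974, chr1:149927804-149928053 (minus strand) and chr19:40750953-40751202, in that order. The gene positions given below start further upstream than these RefSeq starts. By those positions the SF3B4 and SNRPA windows lie wholly within their genes. HNRNPM starts there at 8444767, so most of its window, with the motif, lies within the gene. The HNRNPA0 and SRSF3 windows overlap their genes only at the end. The GC content of the windows was 70.4%, 62.4%, 71.6%, 61.2% and 60.4%, and they held 31, 26, 33, 21 and 21 CpG pairs, against a median of 58.0% and 11 over all promoters of that length. The motif CAGGTG, read on both strands so that CACCTG counts too, was in 17.5% of the 35116 promoters of the RefSeq table and in 7 of the 72 promoters (9.72%) that matched 49 of the 54 splicing genes. The related motif CAGGTA, or TACCTG on the other strand, was in 7.99% of all promoters and in 4 of the 72 (5.56%). Either motif was in 23.8% of all and 15.3% of the splicing gene promoters, those of HNRNPDL, HNRNPF, HNRNPH3, HNRNPM, SF3A1, SF3A3, SNRPD3, SNRPN and SRSF11. A match of letters is a description of the sequence and not a binding site, and binding of ZEB1 was not measured.

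The proteins specific to U1 and U2 snRNP moved unequally. SNRPA encodes the A protein of U1 snRNP, which binds a stem-loop of U1 RNA. It stood at 14.8 FPKM in the empty vector library (556 reads), 34.5 in the wild-type library (1124 reads) and 34.1 in the K80R library (1071 reads). That is 2.33-fold (2.10 to 2.58) and 2.30-fold (2.07 to 2.55) the empty vector level, with the ZEB1 libraries at 0.99 of each other. The gene lies on chr19:40750637-40765389 (GRCh38, as are all gene positions here) and shares 89 exon bases with C19orf54 on the other strand, which had 202, 373 and 318 reads. SNRPC, which encodes the C protein of U1 snRNP and helps it engage the splice site, stood at 65.9, 63.2 and 60.8 FPKM in the empty vector, wild-type and K80R libraries. Proteins of U2 snRNP are encoded by SNRPA1 and SNRPB2. SNRPA1 stood at 15.1, 16.5 and 16.2 FPKM, so its 3 values lay close together. SNRPB2 stood at 35.6, 33.3 and 26.1 FPKM, lowest in the K80R library, at 0.73 of the empty vector level. Of these 4 genes only SNRPA was past 1.5-fold.

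All 9 genes with SF3A or SF3B symbols were measured, and on the deposited scale none of these 9 was lower past 1.5-fold in any comparison. PHF5A, an SF3B subunit gene without such a symbol, was lower in both ZEB1 libraries and is given with the other lists. Against empty vector 4 of the 9 were higher in the wild-type library and 3 in the K80R library. Those are 44.4% and 33.3% of the 9, beside 14.2% and 12.6% of all measured genes. The median differences of the 9 genes were 0.18 and 0.25. On the common-sum scale those medians were −0.27 and −0.18, still 0.10 and 0.18 above the median of all genes, and SF3A1 and SF3A2 were no longer past 1.5-fold. The highest ratio was that of SF3B4, which encodes a subunit that binds pre-mRNA near the branch site and is mutated in Nager syndrome. It stood at 20.3 FPKM in the empty vector library (724 reads), 43.7 in the wild-type library (1355 reads) and 52.1 in the K80R library (1558 reads). Those are 2.16-fold (1.97 to 2.36) and 2.57-fold (2.35 to 2.81) the empty vector level, and the K80R library was at 1.19 (1.11 to 1.28) of the wild-type library. The gene lies on chr1:149923317-149928344.

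SF3A1 and SF3A2 encode 2 of the 3 SF3A subunits, which help U2 snRNP join the intron. SF3A1 stood at 23.9 FPKM in the empty vector library against 38.8 and 39.3 in the wild-type and K80R libraries, 1.63-fold (1.54 to 1.71) and 1.65-fold (1.56 to 1.74) higher. SF3A2 stood at 16.8 against 31.2 and 26.9 FPKM, 1.86-fold (1.70 to 2.03) and 1.61-fold (1.47 to 1.76) higher. It shares 398 exon bases with PLEKHJ1 on the other strand, whose reads went the other way, from 1602 to 674 and 482. The third subunit gene, SF3A3, stood at 32.3, 32.0 and 32.0 FPKM in the 3 libraries, within counting error of no difference. The subunit genes of this complex thus did not share a ratio.

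Among the SF3B genes, SF3B5 was past 1.5-fold in the wild-type library alone. It stood at 60.9, 94.7 and 72.7 FPKM in the empty vector, wild-type and K80R libraries, 1.55-fold (1.40 to 1.72) and 1.19-fold (1.07 to 1.33) the empty vector level. SF3B6, whose product touches the branch adenosine, stood at 80.5, 79.3 and 61.5 FPKM. SF3B1, which encodes the subunit around the branch site and carries recurrent mutations in myeloid neoplasms, stood at 46.9, 53.3 and 59.1 FPKM, with K80R at 1.26 of empty vector. SF3B2 ran the other way, at 48.8, 42.6 and 34.7 FPKM, with K80R at 0.71 of empty vector. SF3B3 stood at 29.5, 22.5 and 24.4 FPKM. Subunit genes of SF3B therefore lay on both sides of the empty vector level.

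The lowest differences from empty vector in the SNRP family were those of Sm ring genes. Of the 8 ring genes 3 lay above 0 in the wild-type library and 2 in the K80R library. Against empty vector 1 of the 8 was higher and 2 lower in the wild-type library, and 5 were lower and none higher in the K80R library. The median differences were −0.44 and −0.76. In the wild-type library 12.5% of the 8 were thus higher and 25% lower, beside 14.2% and 11.1% of all measured genes. In the K80R library 62.5% were lower, beside 13.0% of all measured genes, of which 12.6% were higher. SNRPB, which encodes the B and B′ Sm proteins and is the most abundant SNRP gene, stood at 187 FPKM with empty vector, 126 with wild-type ZEB1 and 101 with K80R. The ratios to empty vector were 0.67 (0.64 to 0.71) and 0.54 (0.51 to 0.57). SNRPF had the lowest ratios, at 22.0, 12.7 and 9.47 FPKM from 1063, 535 and 384 reads, or 0.58 (0.52 to 0.64) and 0.43 (0.38 to 0.48) of empty vector. SNRPE stood at 57.9, 39.4 and 29.8 FPKM and SNRPG at 30.6, 24.0 and 17.2 FPKM. For both genes K80R was past 1.5-fold below empty vector, at 0.51 (0.47 to 0.57) and 0.56 (0.50 to 0.63), and wild type was not, at 0.68 and 0.78. On a common sum of FPKM wild type was past it too for both genes, and for SNRPE also on a common sum without mitochondrial genes. The medians of all genes on those scales were −0.37 and −0.05 for wild type against empty vector. The 3 values of each of these genes therefore fell in the same order, empty vector above wild type above K80R.

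The D proteins of the ring differed among themselves. SNRPD1 stood at 25.2 FPKM in the empty vector library and at 15.1 and 14.8 in the wild-type and K80R libraries, 0.60 (0.55 to 0.65) and 0.59 (0.54 to 0.64) of it. SNRPD2 was highest in the wild-type library, at 82.4, 124 and 97.7 FPKM, 1.51-fold (1.42 to 1.60) and 1.19-fold the empty vector level. Its wild-type value was no longer past 1.5-fold on either common-sum scale, and the same held for SF3B5. SNRPD3 stood at 24.6, 26.2 and 23.8 FPKM. SNRPN, an imprinted gene that makes the SmN protein of neurons, was low everywhere, at 1.20, 1.70 and 1.47 FPKM from 65, 80 and 67 reads. It shares exon bases with SNURF and SNHG14 on its own strand, so its reads are uncertain.

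**Figure D3:**
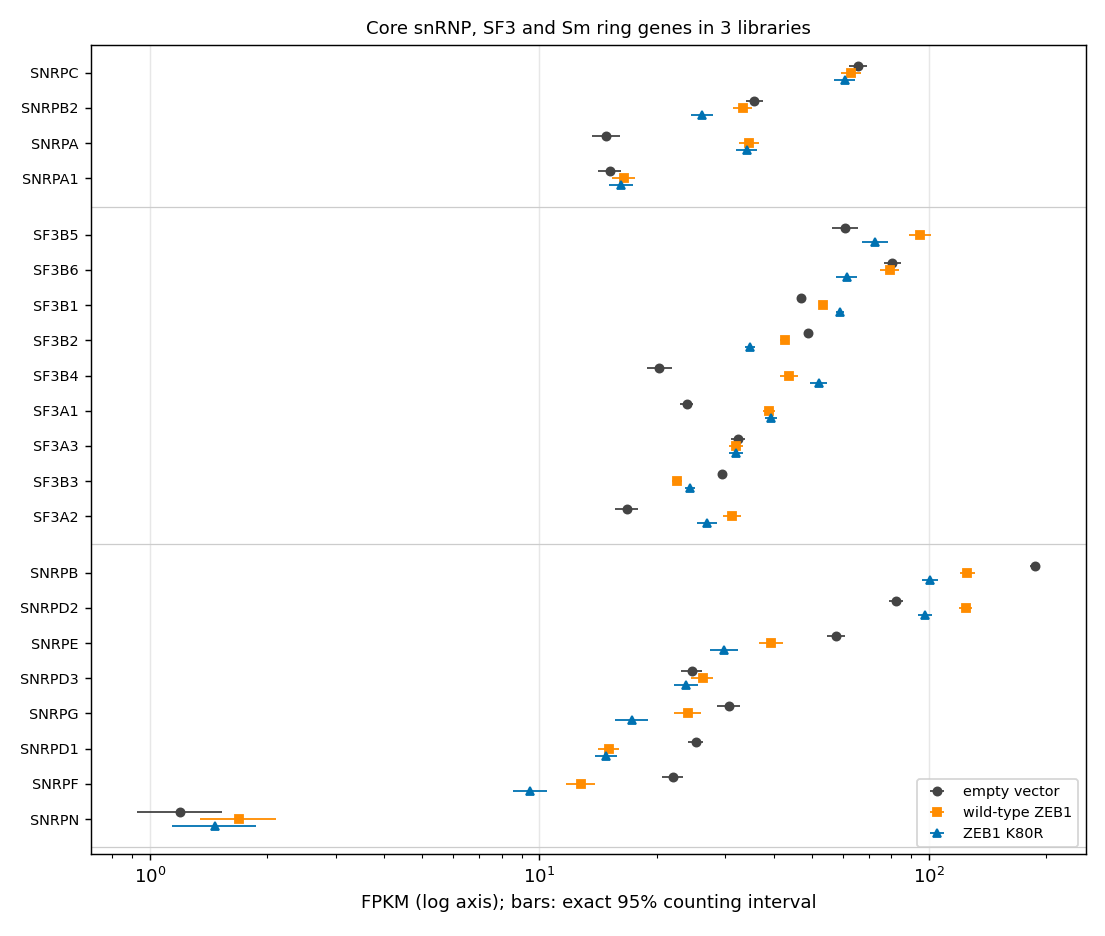
FPKM (log axis) of the U1 and U2 snRNP, SF3A and SF3B, and Sm ring genes in the empty vector (grey circles), wild-type ZEB1 (orange squares) and K80R (blue triangles) libraries; bars are exact 95% counting intervals. SNRPA and SF3B4 sit to the left in the empty vector library, at 14.8 and 20.3 FPKM, and SNRPB, SNRPE and SNRPF run from right to left in the order empty vector, wild type, K80R.

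All 12 SNRP genes were lower in the K80R library than in the wild-type library, though none past 1.5-fold. Of all measured genes 6601 of 12605 were lower there too, and of protein-coding genes of at least 10 FPKM 2650 of 4113. The median difference of the SNRP genes was −0.22, and −0.33 for the 8 Sm ring genes. For 7 of the 12 SNRP genes the counting interval of the ratio lay below 1. The lowest ratios were those of SNRPG at 0.72, SNRPF at 0.74 and SNRPE at 0.76. Gene length moved with these values. Of the 54 genes, the 8 with 1000 to 2000 bases had a median difference of −0.33 between K80R and wild type, and the 734 protein-coding genes of that length had −0.30. The 31 splicing genes over 4000 bases had a median of 0.06, beside 0.04 for 6777 protein-coding genes. Across the 54 genes the difference between K80R and wild type had a correlation of 0.49 with log2 length, and across all measured genes of −0.01. The genes share their libraries, so the correlation is a description. With the length trend of all genes removed, the median of the 12 SNRP genes was −0.06, with 8 below 0 and 4 above. The median of the Sm ring genes was then −0.12 and 7 of 8 were still below 0. On a common sum without mitochondrial genes, 7 of the 12 SNRP genes and 6 of the 8 Sm ring genes were below 0. The median of all genes on that scale was 0.11, and 9 of the 12 SNRP genes and 7 of the 8 Sm ring genes lay below it.

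The SR protein genes were mostly lowest in the wild-type library, and were highest in the empty vector library (6 genes) or the K80R library (5 genes). Of 12 SRSF genes 11 were measured. Against empty vector none was higher and 2 were lower in each ZEB1 library, and the same 2, SRSF3 and SRSF9, were lower in both. The median differences were −0.23 for wild type and −0.15 for K80R. The lower genes are 18.2% of the 11, beside 11.1% (wild type) and 13.0% (K80R) of all measured genes, of which 14.2% and 12.6% were higher. The wild-type library held the lowest of the 3 values for 8 of the 11 genes, which was not counted over all measured genes. SRSF3 encodes a small SR protein that acts in splicing and in the export of mRNA, and it can bind its own pre-mRNA. On chr6:36594353-36605600, it stood at 75.0 FPKM in the empty vector library (8481 reads), 34.7 in the wild-type library (3409 reads) and 35.8 in the K80R library (3392 reads). Those are 0.46 (0.44 to 0.48) and 0.48 (0.46 to 0.50) of the empty vector level. It ranked 1 of the 11 genes in the empty vector library and 5 in both others.

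SRSF9 stood at 42.2 FPKM with empty vector, 27.3 with wild-type ZEB1 and 21.3 with K80R, 0.65 (0.60 to 0.69) and 0.50 (0.47 to 0.54) of empty vector. It shares 1729 of its 3744 exon bases with GATC on the other strand, whose reads also went from 605 to 199 and 211. With the strand setting of the counting not given in the sources used here, reads of SRSF9 and GATC cannot be told apart. SRSF1, the founding member of the family and a known oncoprotein, stood at 23.9, 16.5 and 21.4 FPKM, with K80R at 0.896 (0.823 to 0.975) and wild type at 0.69 of empty vector. SRSF2, which is mutated in myeloid neoplasms, showed the same order at 54.8, 38.0 and 47.8 FPKM. It shares 1106 bases with MFSD11, which had 219, 228 and 217 reads. SRSF7 stood at 57.5, 40.2 and 43.7 FPKM and SRSF5 at 44.5, 39.8 and 36.9 FPKM.

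Only SRSF11 lay above empty vector in both ZEB1 libraries by more than counting error. It stood at 17.8, 23.1 and 26.0 FPKM, ratios of 1.30 and 1.46, and was past 1.5-fold in the K80R library on a common sum without mitochondrial genes. On that scale the median of all genes was 0.07 for K80R against empty vector, and relative to it no SR gene was higher past 1.5-fold. SRSF4 and SRSF8 varied little, at 13.8, 12.8 and 13.9 FPKM and at 11.6, 10.9 and 12.0 FPKM.

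Between the 2 ZEB1 libraries, 9 of the 11 SR genes were above 0 in K80R minus wild type, with a median of 0.13, and for 7 of them the counting interval of the ratio lay above 1. Of all measured genes 5966 of 12605 were above 0, and of protein-coding genes of at least 10 FPKM 1463 of 4113. None of the SR genes reached 1.5-fold on the scale of FPKM + 1. SRSF10, whose product represses splicing when it loses its phosphates, had the largest positive difference of all 54 genes. It stood at 16.2 FPKM with empty vector, 13.7 with wild-type ZEB1 and 20.4 with K80R, so K80R was 1.49-fold (1.40 to 1.57) the wild-type level. SRSF6 stood at 45.4, 42.2 and 56.7 FPKM, with K80R at 1.34-fold (1.28 to 1.41) the wild-type level. It ranked 4 of the 11 in the empty vector library and 1 in both others. SRSF9, at 0.78, and SRSF5 were the 2 SR genes below wild type. On a common sum without mitochondrial genes, SRSF10 and the hnRNP gene HNRNPH1 were past 1.5-fold. On that scale the median of all genes was 0.11, with 6.96% of them higher and 2.98% lower. Relative to that median none of the 54 genes was past 1.5-fold.

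Of 27 hnRNP genes 22 were measured, and their summed FPKM was 1492 with empty vector, 1160.5 with wild-type ZEB1 and 1193 with K80R. Against empty vector none was higher in either ZEB1 library, 7 were lower in the wild-type library and 6 in the K80R library. The median differences were −0.39 and −0.31. The lower genes are 31.8% and 27.3% of the 22, beside 11.1% and 13.0% of all measured genes, of which 14.2% and 12.6% were higher. In 16 of the 22 the empty vector library had the highest of the 3 values, which was not counted over all measured genes. HNRNPM, whose product promotes the mesenchymal isoform of CD44 in breast cancer cells, stood at 119 FPKM in the empty vector library (10645 reads), 56.3 in the wild-type library (4362 reads) and 56.1 in the K80R library (4198 reads). The ratios were 0.47 (0.46 to 0.49) and 0.47 (0.45 to 0.49). The gene, on chr19:8444767-8489114, ranked 3 of the 22 with empty vector, 8 with wild-type ZEB1 and 9 with K80R.

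HNRNPA0, a gene of the A/B group on chr5:137745651-137754376, had the lowest ratios of the 54 genes. It stood at 35.8 FPKM in the empty vector library (4959 reads), 15.1 in the wild-type library (1820 reads) and 14.6 in the K80R library (1692 reads), or 0.42 (0.40 to 0.45) and 0.41 (0.38 to 0.43) of empty vector. The ZEB1 libraries lay together and well apart from the empty vector library. HNRNPA2B1, an abundant nuclear protein that also reads RNA methylation and sorts RNA, stood at 177, 109 and 114 FPKM, 0.62 (0.61 to 0.63) and 0.64 of empty vector. It shares 368 exon bases with CBX3 on the other strand, which had 5275, 2864 and 2635 reads.

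The group that binds runs of G was split. HNRNPH2 stood at 55.0, 34.8 and 35.4 FPKM, ratios of 0.63 and 0.64. Its K80R value was within 1.5-fold with the length trend removed, and those of HNRNPH2 and HNRNPA2B1 were so on a common sum without mitochondrial genes. On that scale the median of all genes was 0.07 for K80R against empty vector, and 6 hnRNP genes were lower past 1.5-fold relative to it. HNRNPH1 stood at 50.4 FPKM with empty vector, 32.2 with wild-type ZEB1 and 45.1 with K80R, ratios of 0.64 (0.61 to 0.66) and 0.89. Its K80R level was 1.40-fold (1.35 to 1.46) the wild-type level. HNRNPF stood at 53.9, 62.4 and 64.5 FPKM and HNRNPH3 at 33.4, 26.0 and 26.8 FPKM. Within this group HNRNPF alone was above empty vector in both ZEB1 libraries.

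HNRNPK, which binds runs of C in RNA and DNA, was the most abundant hnRNP gene to stand above empty vector. It stood at 93.3, 126 and 138 FPKM, 1.35-fold and 1.48-fold (1.44 to 1.53) the empty vector level, and ranked 6 of the 22 in the empty vector library and 2 in both others. On the scale of FPKM + 1 this did not reach 1.5-fold, except for K80R on a common sum without mitochondrial genes. Relative to the median of all genes on that scale, 0.07, no hnRNP gene was higher past 1.5-fold in the K80R library. HNRNPUL1 and HNRNPL stood at 37.2, 43.2 and 45.4 FPKM and at 36.8, 38.9 and 37.4 FPKM. HNRNPUL1 shares 215 exon bases with TGFB1, which had 3840, 6949 and 4701 reads. Other abundant genes lay under empty vector in both ZEB1 libraries, within 1.5-fold. HNRNPA3 stood at 110, 80.4 and 78.9 FPKM, HNRNPAB at 98.7, 69.4 and 78.9, and HNRNPC, whose product binds runs of U, at 85.1, 83.2 and 71.3. HNRNPD, a factor of mRNA decay, stood at 70.1, 54.9 and 57.1 FPKM, its relative HNRNPDL at 55.9, 44.9 and 52.7, and HNRNPU, a nuclear scaffold protein, at 38.9, 26.8 and 30.0. HNRNPR, HNRNPLL and HNRNPUL2 had 19.5, 18.2 and 20.1, 9.49, 7.91 and 6.40, and 6.81, 8.28 and 6.81 FPKM.

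HNRNPA1, the most abundant of all 54 genes, has near-identical copies in the genome, and 2 of them, HNRNPA1L2 and HNRNPA1P48, are among the measured genes. They lie on chr12:54280193-54287088, chr13:52642425-52643796 and chr16:51553436-51647132, in that order. HNRNPA1 stood at 287 FPKM with empty vector, 211 with wild-type ZEB1 and 203 with K80R, 0.74 and 0.71 (0.69 to 0.72) of empty vector. HNRNPA1L2 stood at 6.19, 3.38 and 2.90 FPKM from 135, 64 and 53 reads, ratios of 0.55 (0.40 to 0.74) and 0.47 (0.33 to 0.65). HNRNPA1P48 stood at 12.3, 7.57 and 6.91 FPKM from 376, 201 and 177 reads, ratios of 0.62 and 0.56. Aligned to the 1116 coding bases of HNRNPA1 in GENCODE release 29, the coding sequence of HNRNPA1L2 was identical at 945 of 960 bases (98.4%) and that of HNRNPA1P48 at 819 of 825 (99.3%). A read from a stretch without a difference matches more than 1 of these genes. The reads of the 2 copies, past 1.5-fold below empty vector in both ZEB1 libraries, therefore cannot be told apart from reads of HNRNPA1. Without these copies, 11 of 52 splicing genes instead of 13 of 54 were lower in the K80R library than in the empty vector library.

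**Figure D4:**
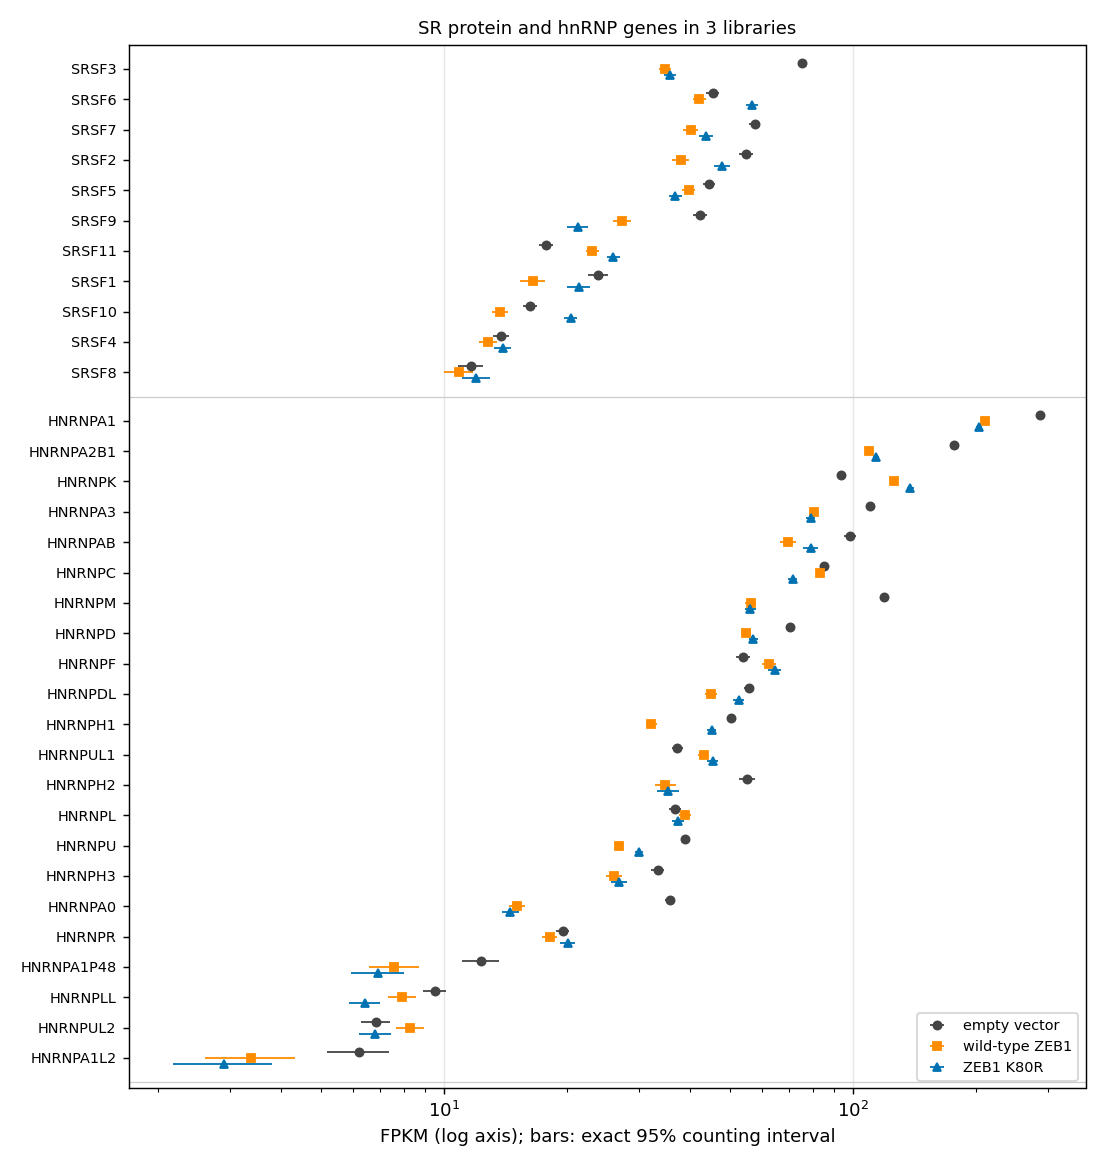
FPKM (log axis) of the SR protein and hnRNP genes in the empty vector (grey circles), wild-type ZEB1 (orange squares) and K80R (blue triangles) libraries; bars are exact 95% counting intervals. For SRSF3, HNRNPM and HNRNPA0 the empty vector circle lies far to the right of the other symbols, which coincide, at 75.0, 119 and 35.8 FPKM against 34.7, 56.3 and 15.1 in the wild-type library.

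GC content moved with the differences from empty vector. Across the 54 genes the difference between wild type and empty vector had a correlation of 0.46 with the GC content of the longest coding transcript, and between K80R and empty vector of 0.36, beside 0.05 and −0.08 across all genes. In 4 equal bins of all genes by GC content, the 21 splicing genes in the lowest bin had a median difference of −0.35 for wild type against empty vector, the next 11 had −0.31, the next 17 had −0.06 and the 5 in the highest had 0.63. The medians of all genes in those bins were −0.10, 0.00, 0.07 and 0.08. The trend among the splicing genes was thus steeper than that among all genes, and the part that GC content has in it was not tested. With the trends of all genes with GC content and length removed together, HNRNPA2B1 and SNRPD2 were no longer past 1.5-fold in the wild-type library, and SNRPB was.

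**Figure D5:**
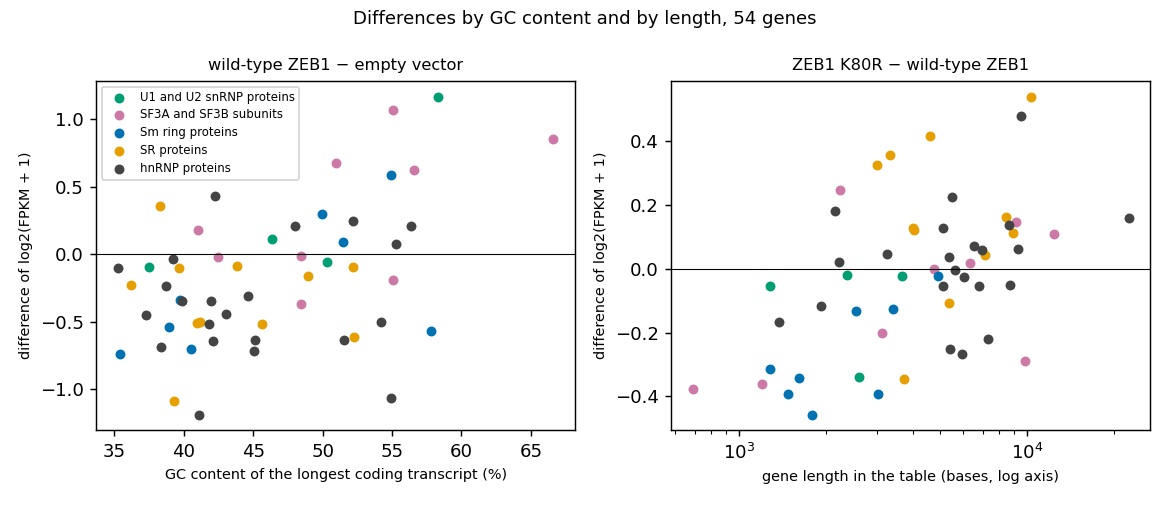
Difference of log2(FPKM + 1) for the 54 splicing genes (points, coloured by role) by GC content for wild-type ZEB1 minus empty vector (left) and by gene length on a log axis for K80R minus wild type (right). Points rise with GC content on the left, with a correlation of 0.46, and the Sm ring genes lie at short lengths and below 0 on the right.

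Splicing genes outside the name rule had higher and lower values in more equal number. In 6 lists with 178 measured genes, 11 were higher and 13 lower in the wild-type library than in the empty vector library, and 18 higher and 18 lower in the K80R library. The medians were −0.10 and −0.02. In the wild-type library that is 6.18% higher and 7.30% lower, beside 14.2% and 11.1% of all measured genes. In the K80R library it is 10.1% each way, beside 12.6% and 13.0%. Between K80R and wild type 3 were higher and 3 lower, with a median of 0.04. Those are 1.69% each way, beside 4.42% and 5.18% of all measured genes. Whether the lists and the 54 genes differ was not tested. Among 45 other snRNP and U2AF proteins, 3 were higher and 6 lower in the wild-type library, and 5 higher and 9 lower in the K80R library. SNU13, which binds U4 RNA, stood at 18.5, 40.2 and 33.9 FPKM in the empty vector, wild-type and K80R libraries. LSM4, of the Sm-like ring of U6, stood at 58.8, 35.3 and 23.1 FPKM, in the same order as the Sm genes SNRPB, SNRPE and SNRPF. SF1, which binds the branch site before U2 does, stood at 22.8, 34.4 and 44.0 FPKM, and PHF5A, a further SF3B subunit, at 42.2, 23.2 and 25.1 FPKM. U2AF1 stood at 1.38, 1.42 and 3.05 FPKM, and its reads are uncertain because the genome assembly holds a near-identical copy.

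Of 23 SR-related proteins and SR protein kinases, 2 were higher and none lower in the wild-type library, and 6 were higher and none lower in the K80R library. The higher genes are 8.70% and 26.1% of the 23, beside 14.2% and 12.6% of all measured genes, of which 11.1% and 13.0% were lower. The medians of the 23 genes were 0.08 and 0.25, and 18 of the 23 lay above 0 in K80R minus wild type, with a median of 0.19. Of all measured genes 5966 of 12605 lay above 0 in that comparison. CLK2, a kinase that phosphorylates SR proteins, stood at 6.41, 14.4 and 14.4 FPKM. The SR-related matrix proteins SRRM1 and SRRM2 stood at 8.43, 14.6 and 18.2 FPKM and at 45.4, 61.4 and 82.9 FPKM. TRA2B, an exon-binding activator of splicing, was lowest in the wild-type library, at 39.1, 31.4 and 49.2 FPKM, with K80R highest, the order also seen in SRSF10.

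Of 38 other regulators of alternative splicing, 3 were higher and 1 lower in the wild-type library, and 5 higher and 1 lower in the K80R library. That is 7.89% and 2.63% in the wild-type library, beside 14.2% and 11.1% of all measured genes. In the K80R library it is 13.2% and 2.63%, beside 12.6% and 13.0%. The C-binding proteins PCBP1 and PCBP2, relatives of hnRNP K, stood at 44.0, 83.5 and 76.9 FPKM and at 12.3, 27.0 and 24.9 FPKM. PTBP1, which represses exons beside pyrimidine tracts, stood at 36.7, 54.1 and 65.6 FPKM. TARDBP, which encodes TDP-43, stood at 25.5, 13.4 and 14.4 FPKM. Among the regulators tied to epithelial or mesenchymal state, ESRP1 had 0, 1 and 1 reads and ESRP2 28, 21 and 30 reads, both under the filter on low values. RBFOX2 stood at 10.5, 14.7 and 14.6 FPKM and QKI at 9.50, 7.56 and 7.46 FPKM, neither past 1.5-fold.

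The counts of the last 3 lists stand beside 14.2% of all measured genes higher and 11.1% lower in the wild-type library. In the K80R library those shares were 12.6% and 13.0%. Of 36 proteins of the catalytic steps and the Prp19 complex, 1 was higher and 1 lower in the wild-type library, and 1 higher and 2 lower in the K80R library. The helicase gene DDX41 stood at 9.89, 19.6 and 12.6 FPKM, and PRPF18, which acts in the second step of splicing, at 8.61, 5.13 and 3.50 FPKM. Of 19 genes of the SMN complex and Sm assembly, which load Sm rings onto RNA, none was higher and 3 were lower in each ZEB1 library. GEMIN4 stood at 17.5, 8.14 and 10.7 FPKM, and PHAX, an exporter of snRNA, at 21.0, 11.6 and 11.0 FPKM. Of 17 genes of the exon junction complex and nonsense-mediated decay, 2 were higher and 2 lower in the wild-type library, and 1 higher and 3 lower in the K80R library. RBM8A, a core subunit of the junction complex, stood at 20.1, 8.41 and 9.97 FPKM, and ALYREF, an mRNA export adaptor, at 75.5, 42.9 and 37.7.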

How the data were processed

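Gene expression was measured in 3 libraries labelled HCT116, grouped by the genotype in the labels. RNAiso Plus served for extraction and a SMARTER mRNA kit for the libraries, per the labels' protocols. The build hg38, DESeq2 1.20.0, featureCounts 1.5.0-p3 and CASAVA are named, without roles or order, per the submitters' processing notes. Aligner, annotation and strand setting: not given in the sources used here. Deposited by the authors was the FPKM of 58735 genes, and all identifiers and the coordinates of all 60 genes described equalled those of GENCODE release 29 (GRCh38). FPKM times gene length was a whole multiple of 1 step per library within 0.05 reads, which gave the reads used for the counting intervals (Poisson for levels, conditional Clopper-Pearson for ratios). Such intervals cover counting error only. A floor of 3 reads at 2000 bases is 0.0944, 0.109 and 0.113 FPKM in the empty vector, wild-type and K80R libraries.

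Differences are of log2(FPKM + 1), which understates low genes, computed from the deposited values with a mean FPKM of at least 1; quoted ratios are of FPKM. With 1 library per group there is no test and no p-value. Named genes were those past 1.5-fold in any comparison, the 4 highest of each family, the extremes of each family, those below the filter, up to 4 extremes of each other list, ZEB1, ESRP1, ESRP2, RBFOX2 and QKI. Other splicing genes named were chosen after their values were seen. The genes, lists and rules were chosen with earlier results of these data known. The procedure was tested on simulated data. Alternatives were other pseudocounts, filters, folds and scalings, and removal of trends with length, or with GC content and length, the last chosen after seeing the data. Promoters came from a RefSeq table (GRCh38.p14), with no entry matched for 5 genes, and coding sequences from GENCODE 29. Python 3.11.15, pandas 2.3.3, numpy 2.4.6, scipy 1.17.1 and matplotlib 3.10.9 were used.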

Additional observations from a re-analysis of the deposited data

How the results depend on the processing

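No paired analysis was possible because each group had 1 library, and for the same reason no library could be left out. A pseudocount of 0.1, a filter of 0.1 FPKM and no filter moved no count by over 1.5 times. Some medians changed sign with the scale, among them those of SF3 against empty vector on a common sum and that of all 54 genes between the ZEB1 libraries without mitochondrial genes. Against empty vector, a common sum of FPKM gave 2 higher and 29 lower splicing genes for wild type and 2 and 29 for K80R, with medians of −0.64 and −0.66. The wild-type medians were then −0.27 for SF3, −0.66 for SRSF and −0.85 for HNRNP genes, and the K80R median for HNRNP genes −0.74. In the other lists it gave 3 higher and 72 lower for wild type, 3 and 62 for K80R, and 1 lower for K80R against wild type. Of all genes on that scale, 5.92% were higher and 33.2% lower for wild type, and 5.49% and 32.9% for K80R. For K80R against wild type 4.37% of all genes were higher and 4.58% lower. A common sum without mitochondrial genes moved K80R against wild type to 2 splicing genes higher, medians of 0.14 for all 54, 0.15 for SF3 and 0.18 for HNRNP genes, and 8 higher and 0 lower in the other lists. On that scale the median of all measured genes was 0.11 for K80R against wild type, with 6.96% of them higher and 2.98% lower. Removing the length trend left 1 higher and 0 lower in the other lists there, as did removing GC content and length together, 1 and 0. A filter of 10 FPKM left 7 other genes higher for wild type, beside 15.7% of all genes at that filter. Genes were also called where the larger value of FPKM + 1 was at least 25% above the smaller. By that rule 24 splicing genes were lower for wild type, and 7 were higher and 21 lower for K80R. For K80R against wild type, 5 were higher and 8 lower. Of all genes, 26.6% were then higher and 23.9% lower, 25.4% and 25.3%, and 13.8% and 18.0% in these comparisons. The other lists then had 39 and 42, 39 and 41, and 24 and 18. At 2-fold, the splicing genes had 2 higher and 3 lower for wild type and 2 and 4 for K80R, beside 5.47% and 3.78%, and 4.92% and 4.45% of all genes, and the other lists 3 and 2, 2 and 2, and 0 and 0. No measured splicing gene had fewer than 53 reads, and the spread between cultures is unknown.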

Other observations

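Pseudogenes named after the splicing genes were read beside their parents. The table held 182 of them for 24 genes, and 53 had at least 1 read. The 74 of HNRNPA1 had 283, 184 and 220 reads in the empty vector, wild-type and K80R libraries, or 1.22%, 1.24% and 1.60% of the reads of HNRNPA1. The 20 of SNRPG had 48, 114 and 91 reads, or 5.50%, 19.2% and 22.1% of the reads of SNRPG. They were higher in both ZEB1 libraries than with empty vector, while SNRPG was lower. Between the ZEB1 libraries, both they and SNRPG were lower with K80R than with wild type. Pseudogenes of HNRNPK had 16, 89 and 37 reads, those of HNRNPL 35, 72 and 75, and those of HNRNPC 120, 136 and 90. Short reads of a gene and its pseudogenes can match both.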
